A study of Homo sapiens with 6 samples.

Results

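The genes described here are 10 genes of retinoic acid signalling, out of 19775 genes that had a probe set carrying 1 gene symbol. They are the receptors RARA, RARB, RARG and RXRA, the carrier CRABP2, the retinaldehyde reductase DHRS3, the degrading enzymes CYP26A1 and CYP26B1, and the synthesising enzymes ALDH1A1 and ALDH1A3. They were chosen by name for these roles, with the signals of the same 6 arrays already known, so their differences between the groups are a description and no p-value is given for any of them. The cells were OVCA432, a long-established line of human ovarian carcinoma (high grade serous type), and their mRNA was read on Affymetrix U133 Plus 2.0 arrays. In the MFAP5 group, 3 independently prepared samples received 200 ng/mL of recombinant human microfibrillar associated protein 5 (MFAP5), a glycoprotein that cells secrete into the microfibrils around elastic fibres. In the control group, 3 samples received the solvent. Both groups had been without serum for 24 h before the treatment, stayed in serum-free RPMI medium, and were harvested after 48 h. All samples come from 1 cell line, so the spread between them is that of repeated cultures of these cells. The treatment protocol names no retinoid.

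Vitamin A enters cells as retinol, is oxidised to retinaldehyde by retinol dehydrogenases and then to all-trans retinoic acid by aldehyde dehydrogenases of the ALDH1A family. DHRS3 runs the first step backwards, from retinaldehyde to retinol, and CYP26 enzymes break retinoic acid down. CRABP2 carries retinoic acid to the nucleus, where receptors of the RAR family bind it as partners of an RXR receptor on DNA elements made of repeated half-sites. RARB, CYP26A1, DHRS3 and CRABP2 are themselves known as genes that retinoic acid induces.

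The promoters of RARB and CYP26A1 are shown because each holds the known type of receptor element, a direct repeat of a half-site with 5 bases between the copies. The half-sites searched, on both strands, were the consensus AGGTCA, the form AGTTCA, the form GGGTCA and the form GGTTCA. All 10 genes had promoter windows in RefSeq (build GRCh38.p14), 19 windows in all, each with 250 bases before and 50 after an annotated transcript start. The repeat with a spacer of 5 was in 1 of the 4 RARB windows and 1 of the 2 CYP26A1 windows, and in 0.0883% of all 35116 windows (31 windows). A repeat with a spacer of 1 was in 0.131% of all windows, and one with a spacer of 2 in 0.0399%, and in no window of the 10 genes. The repeat of RARB lay on the strand of the gene, 53 to 37 bases before the transcript start. That of CYP26A1 lay on the opposite strand, 90 to 74 bases before the start. Read 5′ to 3′ on its own strand, with the half-sites in capitals, each repeat is:
RARB: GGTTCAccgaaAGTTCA
CYP26A1: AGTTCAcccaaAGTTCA
Counted from 1 at the 5′ end of the repeat, with the RARB base first, the elements differ by G1A and G9C and share 15 of 17 positions.
The whole windows are given 5′ to 3′ on the strand of the gene, with the repeat in capitals, for RARB at chr3:25428013-25428312 (plus strand) and for CYP26A1 at chr10:93073643-93073942 (plus strand):
RARB: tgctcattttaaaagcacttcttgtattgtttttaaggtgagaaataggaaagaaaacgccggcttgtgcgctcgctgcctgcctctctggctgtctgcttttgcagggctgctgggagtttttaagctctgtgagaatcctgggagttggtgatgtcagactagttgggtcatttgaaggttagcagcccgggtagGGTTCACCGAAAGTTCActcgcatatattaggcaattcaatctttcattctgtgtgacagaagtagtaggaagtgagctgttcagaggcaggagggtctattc
CYP26A1: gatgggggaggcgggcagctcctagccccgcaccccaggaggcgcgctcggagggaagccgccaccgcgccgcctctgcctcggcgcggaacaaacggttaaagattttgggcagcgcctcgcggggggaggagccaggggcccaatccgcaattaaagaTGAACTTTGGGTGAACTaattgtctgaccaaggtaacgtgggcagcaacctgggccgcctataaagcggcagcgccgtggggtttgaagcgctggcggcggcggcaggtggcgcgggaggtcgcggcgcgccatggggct
The only window of CRABP2, at chr1:156705735-156706034 (minus strand), held no such repeat and 1 single half-site, in capitals below. Single half-sites are common and were in 38.6% of all windows.
CRABP2: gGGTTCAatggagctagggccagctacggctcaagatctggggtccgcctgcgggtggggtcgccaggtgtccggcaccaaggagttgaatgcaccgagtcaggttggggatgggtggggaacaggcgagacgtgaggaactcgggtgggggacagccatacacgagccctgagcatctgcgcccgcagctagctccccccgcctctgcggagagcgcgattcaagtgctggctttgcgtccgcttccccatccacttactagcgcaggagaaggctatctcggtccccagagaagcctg
The 3 windows of DHRS3 and the 3 of RARA held no repeat either. A match says only that these letters are present, since the arrays measured no binding.

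The deposited values are MAS5 signals, a linear brightness per probe set, scaled to the same trimmed mean of 500.07 on each array. Between 27209 and 36073 probe sets per array were brighter than the brightest of 27 Bacillus control probe sets, which human RNA should not bind and whose brightest signal was 26.4 to 55.9. All 7 epithelial ovarian carcinoma markers, among them PAX8, EPCAM and KRT7, were above that level on all 6 arrays. Their summed signal was 85353 to 93668 with MFAP5 and 70647 to 81587 in control, and its part in the results was not tested. Of 3 leukocyte and 3 endothelial markers none was above it on all 6 arrays, and of 5 fibroblast markers 2 were. The fibroblast markers DCN and PDGFRA were below it on every array, and the summed fibroblast signal was 240.2 to 329 with MFAP5 and 256 to 266 in control. The log2 ratio between 3′ and 5′ control probe sets, a measure of RNA quality, averaged -0.10 with MFAP5 and -0.13 in control for GAPDH, and 0.28 with MFAP5 and 0.30 in control for ACTB (exact permutation tests, two-sided, p = 0.5 and p = 0.6, where 0.1 is the smallest p possible).

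The 10 genes had 23 probe sets, of which 12, from 8 genes, passed a brightness filter (a mean log2 signal no lower than the array-wide median, which was 53.7 as a signal). Both probe sets of RARB that passed, and those of CRABP2 and DHRS3, were lower with MFAP5, and 1 of the 2 of RARA was higher. The arrays read RNA pooled over a whole culture, so fewer expressing cells and less RNA per cell cannot be told apart. These 5 probe sets were also the only ones of the 12 whose MFAP5 and control signals did not overlap. Counted by the fit across all 27307 probe sets that passed the filter (limma, Benjamini-Hochberg adjusted p below 0.05, "called" hereafter), 1 probe set was called higher, 4 lower and 7 not called. Over all probe sets tested, 13.5% were called higher and 11.8% lower, and the groups did not overlap for 41%. Because the genes were listed with this contrast known, nothing is read from these counts. The median log2 fold change was -0.07 over the 12 probe sets and 0.02 over all probe sets tested. With each array centred on its median over all probe sets, which moved the median of all log2 fold changes to -0.12, 2302 probe sets were called higher and 5975 lower, against 3679 higher and 3209 lower as deposited. The members' counts were 1 higher and 4 lower under that scaling too.

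**Figure D1:**
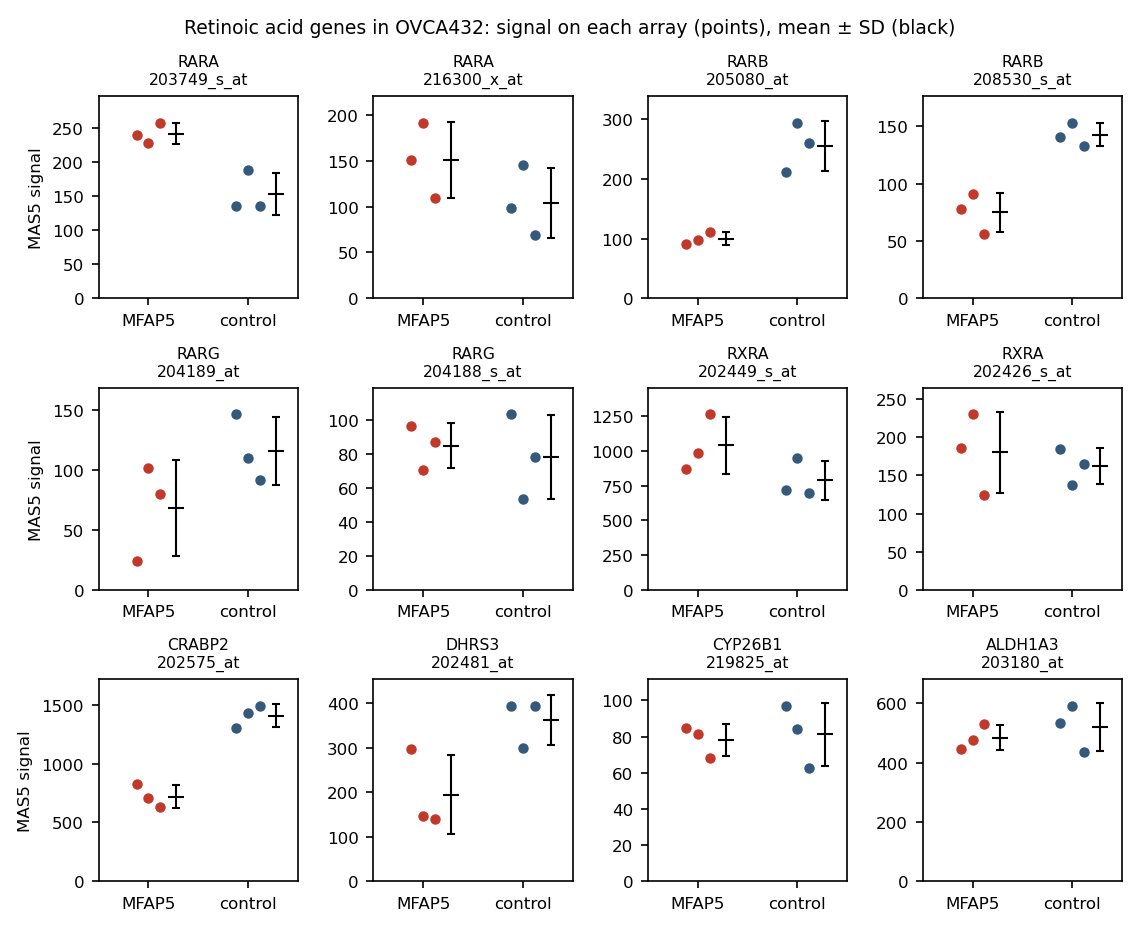
MAS5 signal (linear axes from 0) of the 12 probe sets of the retinoic acid genes that passed the brightness filter. Points are single arrays, 3 with MFAP5 and 3 in control, and black bars give the mean ± SD. The 2 RARB probe sets, CRABP2 and DHRS3 lie lower with MFAP5 and RARA 203749_s_at lies higher, and the groups overlap in the other 7 panels.

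Among the receptors, RARB stood lower with MFAP5 on both bright probe sets. RARB is the receptor gene best known as a target of retinoic acid. Probe set 205080_at had signals of 90.7, 97.6 and 112 with MFAP5, against 211, 294 and 260.3 in control. The brightest MFAP5 array stayed far below the dimmest control array. Its mean was 99.96 ± 10.7 with MFAP5 and 255 ± 42 in control (SD, n = 3 each), which is 2.54-fold lower (log2 fold change -1.34 ± 0.19, moderated SE). Probe set 208530_s_at had signals of 77.6, 90.6 and 56.5 with MFAP5, against 141, 153 and 133.1 in control. It too showed no overlap, and was 1.93-fold lower (log2 fold change -0.95 ± 0.23 SE). The name ending _s_at marks a design that can bind more than 1 transcript. Its call was lost without control replicate 2, at a log2 fold change of -0.90. The other 3 RARB probe sets were below the filter, with signals from 3.26 to 41.8.

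RARA, the receptor expressed in most tissues, was higher with MFAP5 on its brightest probe set. Probe set 203749_s_at had signals of 239.8, 229 and 258 with MFAP5, against 135, 189 and 136 in control. All MFAP5 arrays were above all control arrays, and the difference was 1.60-fold higher (log2 fold change 0.67 ± 0.18 SE). The name of this probe set also ends in _s_at, with the limit given above for RARB. The call was lost without MFAP5 replicate 3 (log2 fold change 0.63), without control replicate 1 (0.59) and with arrays centred on hybridisation controls (0.62). The other bright RARA probe set, 216300_x_at, of a type that can bind related sequences, had 151, 191 and 109 with MFAP5 and 98.4, 145 and 69.1 in control. Those groups overlapped, and it was not called (log2 fold change 0.56 ± 0.30 SE). The dim RARA probe set 203750_s_at, below the filter, had 4.12, 9.18 and 18.7 with MFAP5 and 20.3, 34.7 and 39.5 in control. Its groups did not overlap, but no MFAP5 array and only 2 of 3 control arrays were above the Bacillus controls there.

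RARG, the receptor typical of epithelia, and RXRA, the shared partner of the RAR receptors, were not called on any probe set. RARG 204189_at had 24.2, 101 and 80.1 with MFAP5 and 146, 109.8 and 91.3 in control, with a log2 fold change of -0.97 ± 0.47 SE. A single array, MFAP5 replicate 1, lay far below the others, and the log2 fold change was -0.33 without it. With arrays centred on hybridisation controls, this probe set was called lower (-1.02). RARG 204188_s_at had 97.0, 70.8 and 87.2 with MFAP5 and 104, 53.9 and 78.3 in control (log2 fold change 0.15 ± 0.29 SE), so the groups overlapped. The brighter RXRA probe set, 202449_s_at, had 867, 985 and 1262 with MFAP5, against 715, 951 and 694 in control. Of its control arrays only replicate 2 reached into the MFAP5 range (log2 fold change 0.40 ± 0.16 SE). It was called higher without control replicate 2 (0.54) or without MFAP5 replicate 1 (0.52). The other RXRA probe set, 202426_s_at, had 186, 230.2 and 124 with MFAP5 and 185, 138 and 164 in control (log2 fold change 0.11 ± 0.24 SE).

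CRABP2, which hands retinoic acid to its nuclear receptors, was lower with MFAP5 by about the same log2 amount as the weaker RARB probe set. Its only probe set had signals of 823, 705 and 632 with MFAP5, against 1299, 1430 and 1490 in control. The groups lay far apart, with means of 719.9 ± 96.3 with MFAP5 and 1407 ± 98 in control (SD, n = 3 each). This is 1.96-fold lower (log2 fold change -0.97 ± 0.11 SE), and the smallest SE among the 12 probe sets. CRABP2 was called lower in all 14 alternatives that were run, with log2 fold changes from -1.11 to -0.88.

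DHRS3, which limits the supply of retinaldehyde by reducing it to retinol, was also lower with MFAP5, but with more spread. Its signals were 296, 148 and 140.5 with MFAP5, against 395, 299 and 394 in control. MFAP5 replicate 1 and control replicate 2 were nearly equal, and the other MFAP5 arrays were far lower. The mean was 195 ± 88 with MFAP5 and 363 ± 55 in control (SD, n = 3 each), 1.96-fold lower (log2 fold change -0.97 ± 0.27 SE). It was called in 8 of 13 alternatives. The call was lost without MFAP5 replicate 2 (log2 fold change -0.82), MFAP5 replicate 3 (-0.78), control replicate 1 (-0.91) or control replicate 3 (-0.91), and in a fit without an intensity trend.

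The enzymes that make and break retinoic acid showed no called difference, and part of them could not be measured. ALDH1A3, an enzyme that makes retinoic acid from retinaldehyde, had 445, 477 and 529 with MFAP5, against 533, 592 and 434 in control. The groups overlapped (log2 fold change -0.10 ± 0.13 SE). CYP26B1, a retinoic acid hydroxylase, had 84.5, 81.5 and 68.2 with MFAP5, against 97.0, 84.1 and 62.6 in control, again with overlap (log2 fold change -0.04 ± 0.25 SE). ALDH1A1, which also makes retinoic acid and is widely used as a marker of stem-like cancer cells, had signals of 8.78, 14.3 and 20.6 with MFAP5 and 10.7, 3.99 and 4.95 in control. All of these were below the Bacillus controls, so its level was not measurable in either group. CYP26A1, the main retinoic acid hydroxylase and the other carrier of the promoter repeat, had 6.53, 3.02 and 33.1 with MFAP5 and 2.77, 7.31 and 5.27 in control. It was above the Bacillus controls on 1 array, MFAP5 replicate 3, and no fold is given. Of the members with the repeat, RARB was therefore the only one measured.

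**Figure D2:**
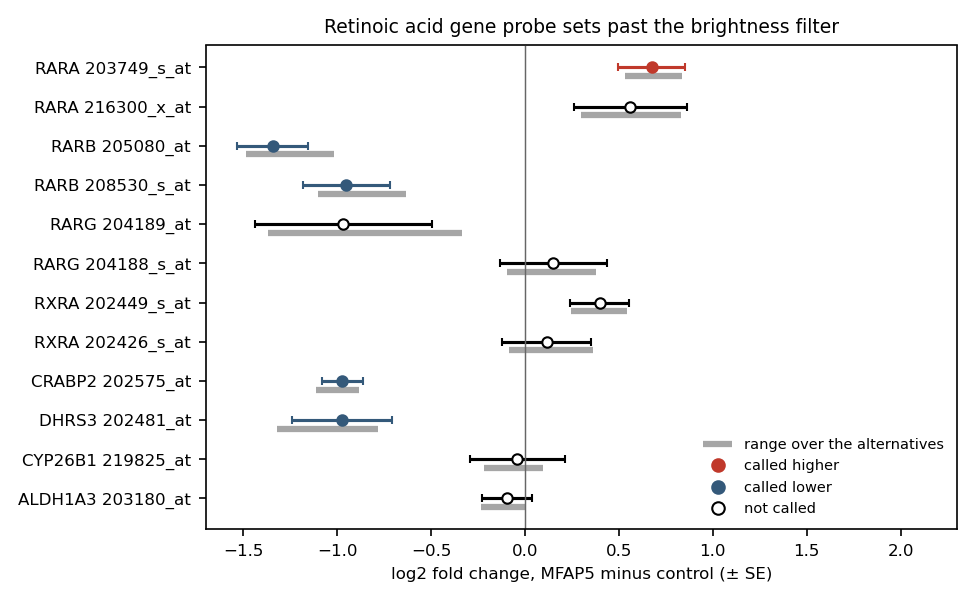
Log2 fold change, MFAP5 minus control, of the 12 probe sets that passed the brightness filter, with the moderated SE. Filled points were called, open points not, and grey bars give the range over the alternative settings. The bars of RARB, CRABP2 and DHRS3 stay below 0 and those of RARA above 0, while those of ALDH1A3, CYP26B1, RARG 204188_s_at and RXRA 202426_s_at reach both sides of 0.

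The 11 probe sets below the filter had signals from 0.69 to 41.8. They were the only probe sets of ALDH1A1 and CYP26A1 and additional ones of RARA, RARB, RARG, CYP26B1 and ALDH1A3. Of their 66 single signals 7 were above the Bacillus controls of the same array, and 7 of the probe sets had none above. No direction is drawn from them.

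**Figure D3:**
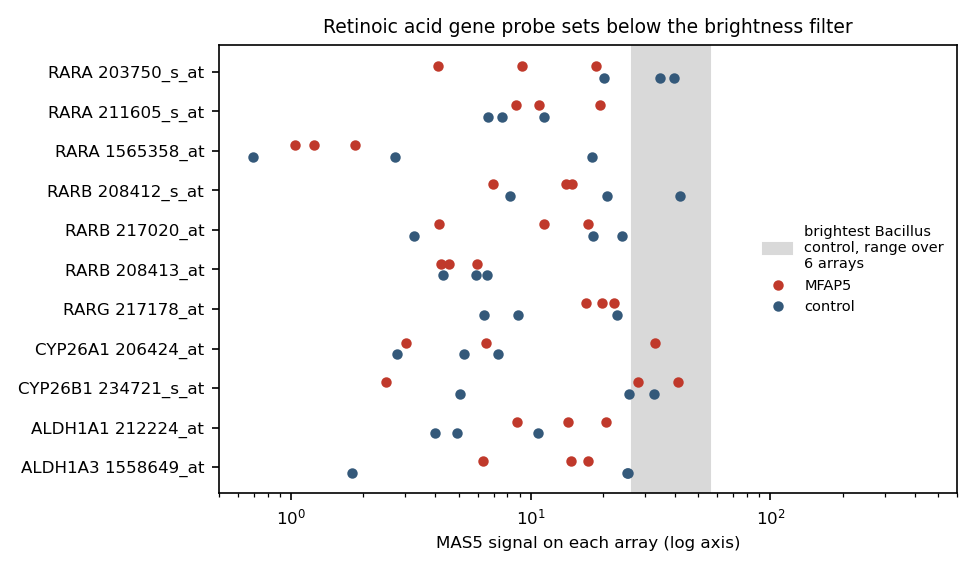
MAS5 signal on each array (log axis) of the 11 probe sets below the brightness filter, MFAP5 arrays above control arrays in each row. The grey band is the range of the brightest Bacillus control over the 6 arrays, 26.4 to 55.9, and all points lie left of it or inside it.

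The other genes of the retinoid pathway were then read from the same fit, with the brightest probe set standing for each gene. They are 71 genes in 6 lists, written from their known roles and likewise with earlier results known. Their counts and limma adjusted p-values therefore describe these genes and do not test the lists. Of the 71 genes, 57 were analysed here and 37 passed the filter, of which 9 rose, 3 fell and 25 were not called. The 9 include RARRES2, which passed the filter largely through its MFAP5 signals. Over all 12216 genes tested, 14.6% rose and 15.3% fell. The median log2 fold change was -0.09 over the 37 genes and -0.01 over all genes. Centred on array medians, the same 37 genes gave 5 higher and 9 lower.

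Of the genes that carry and convert retinoids, FABP5 and RDH13 fell. FABP5, a fatty acid binding protein that can carry retinoic acid to the receptor PPARD, had 6084, 6369 and 6130 with MFAP5, against 10434, 10461 and 11598 in control. It was 1.75-fold lower, with no overlap (log2 fold change -0.80 ± 0.06 SE, limma adjusted p = 1.89e-05). The mRNAs of the carriers CRABP2 and FABP5 were thus lower with MFAP5, while CRABP1, of the same list as FABP5, was not analysed here. FABP5 was the only measured gene of 5 in its list, and its probe set is of the _s_at type. RDH13, a mitochondrial retinol dehydrogenase, was 1.30-fold lower (limma adjusted p = 0.00266) and was the only call among 6 measured oxidoreductases. Its other 2 probe sets past the filter were not called. RDH11, a microsomal retinaldehyde reductase, was not called on its brightest probe set (limma adjusted p = 0.174), while another of its probe sets, named after its value was seen, was 1.48-fold higher (limma adjusted p = 0.000134). Of 8 genes of uptake, transport and storage 2 were measured, and limma called neither (0 at an unadjusted p below 0.05). DGAT1, which can esterify retinol, had a log2 fold change of 0.15 ± 0.09 SE.

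None of the 8 measured RXR and partner receptors was called by limma on its brightest probe set, and 3 were lower there at an unadjusted p below 0.05. At that unadjusted level, 2666 of all 12216 genes tested were lower and 2515 higher, so nothing is read from the 3. A dimmer probe set was called for 3 of them, named after their values were seen. It was lower for the thyroid hormone receptor THRB (207044_at, 1.85-fold, limma adjusted p = 0.0250) and for PPARD (242218_at, 1.54-fold, 0.0221), and higher for the vitamin D receptor VDR (204255_s_at, 1.39-fold, 0.0397). NR1H3, the liver X receptor alpha, had the smallest p (330.3, 290.1 and 283 with MFAP5, 387, 414 and 366 in control; limma adjusted p = 0.0516) and was called lower in 4 of 13 alternatives (range of limma adjusted p 0.0105 to 0.154), among them the fit without MFAP5 replicate 1. Of 9 measured coregulators, 3 rose and 1 fell, all by less than 1.4-fold as the brightest probe sets show. Over all genes tested, the shares were 14.6% and 15.3%. The acetyltransferase EP300 rose 1.34-fold (limma adjusted p = 0.0272), the coactivator NCOA1 1.25-fold (0.0279) and TBL1XR1, a subunit of the corepressor complex, 1.19-fold (0.00865). PRAME, a repressor of RAR signalling found in many tumours, fell by 0.19 on the log2 scale (limma adjusted p = 0.0362). EP300 and NCOA1 were called in 7 of 14 alternatives, PRAME in 6 and TBL1XR1 in 11. Each of the 4 calls was lost with arrays centred on hybridisation controls. With arrays centred on their medians, the 3 rises were lost too (log2 fold changes 0.28 for EP300, 0.19 for NCOA1 and 0.11 for TBL1XR1). PRAME stayed called lower under that scaling (-0.33). The call of EP300 was lost without MFAP5 replicate 2 or 3 or control replicate 1 or 2, that of NCOA1 without any array but MFAP5 replicate 3, and that of PRAME without any array but control replicate 3. Of the other probe sets past the filter, the 1 of EP300 and the 4 of TBL1XR1 were not called, while 2 of the 3 of NCOA1 were called higher (1.45-fold and 1.36-fold). The acetyltransferase CREBBP was not called on its brightest probe set, and 228177_at, named after its value was seen, was 1.52-fold higher (limma adjusted p = 0.0455).

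**Figure D4:**
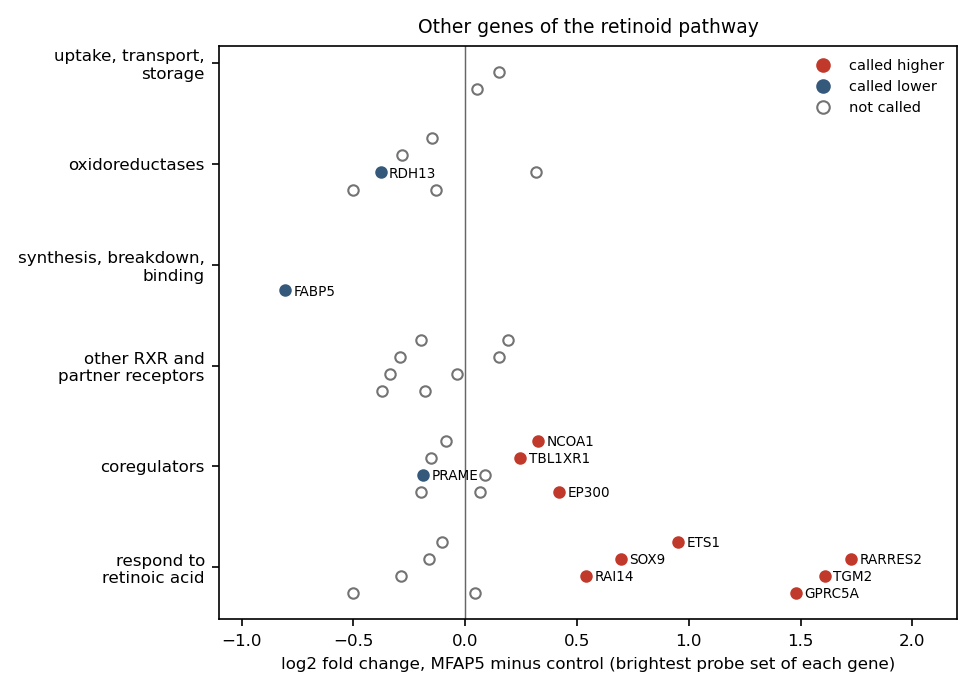
Log2 fold change, MFAP5 minus control, of the 37 measured genes of the retinoid pathway outside the 10, by role, 1 point per gene. Filled points with names were called. The 6 called genes of the bottom row, which respond to retinoic acid, all lie to the right of 0, and FABP5 lies farthest to the left.

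Of 21 listed genes known to respond to retinoic acid in other cells, 11 were measured. Of these 11, 6 rose, 0 fell and 5 were not called by limma (1 lower at an unadjusted p below 0.05). The median log2 fold change of the 11 was 0.54. Count and median include RARRES2, which passed the filter largely through its MFAP5 signals, as given below. Over all genes tested, 14.6% rose and 15.3% fell. The list leaves out the 10 genes described first. Of those, RARB (log2 fold changes -1.34 and -0.95), CRABP2 (-0.97) and DHRS3 (-0.97), also known as induced by retinoic acid, were lower with MFAP5. The 5 measured genes not called had log2 fold changes from -0.50 (MEIS2) to 0.05 (MEIS1), with 4 of them below 0. The listed genes answer to many signals besides retinoic acid, which itself was not measured. GPRC5A, an orphan receptor first cloned as retinoic acid induced, had 12243, 10701 and 11816 with MFAP5, against 4206, 4117 and 4126 in control. The arrays of each group lay close together, and it rose 2.79-fold (limma adjusted p = 5.53e-07), with its 2 other probe sets called higher too. TGM2, the tissue transglutaminase, had 612, 512 and 537 with MFAP5, against 174, 160.2 and 214 in control, and rose 3.05-fold without overlap (limma adjusted p = 4.76e-05). ETS1, a transcription factor, had 252, 337 and 372 with MFAP5, against 133.3, 174 and 188 in control, and rose 1.94-fold (limma adjusted p = 0.0057), while its other probe set was not called. SOX9, a transcription factor of epithelial progenitors (1.62-fold, limma adjusted p = 0.00319), and RAI14, an actin-associated protein (1.46-fold, 0.000392), were named after their values were seen. RARRES2, which encodes the chemoattractant chemerin, had 96.8, 187 and 142 with MFAP5, against 23.2, 25.0 and 122 in control. Its groups overlapped, and only 1 control array was above the Bacillus controls. Control replicates 1 and 2 were below the filter level of 53.7, so RARRES2 passed the filter largely through its MFAP5 signals. RARRES2 was called (limma adjusted p = 0.0473) but kept the call in 4 of 13 alternatives (range of limma adjusted p 0.00103 to 0.151). It was not called without the brightness filter (limma adjusted p = 0.0857). With 1 array left out, it was called only without control replicate 3.

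**Figure D5:**
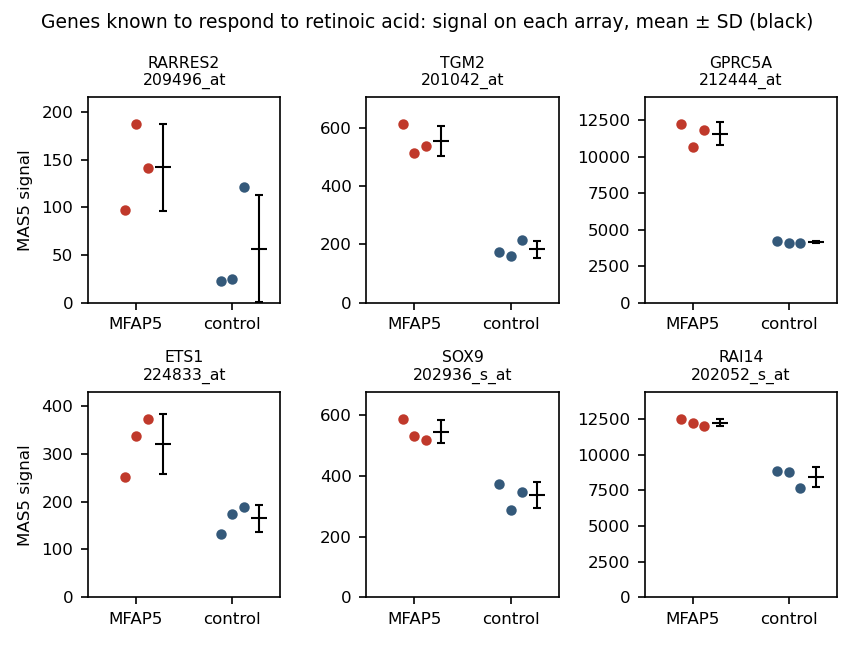
MAS5 signal (linear axes from 0) of the 6 called genes known to respond to retinoic acid, 3 arrays with MFAP5 and 3 in control, with the mean ± SD in black. GPRC5A, TGM2, ETS1, SOX9 and RAI14 lie higher with MFAP5 on all arrays, and RARRES2 control replicate 3 lies among its MFAP5 values.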

How the data were processed

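The authors deposited 1 MAS5 signal per probe set and array, a linear intensity, per the submitters' processing notes, which name MAS5 without a version. Each sample was hybridised to 1 array as biotin-labelled, amplified RNA, per the labels' protocols. The trimmed mean of each column (2% off each end) was 500.07, so no further scaling was applied. The 62 Affymetrix controls were left out of 54675 probe sets, and a gene was named only from a probe set with 1 symbol in the platform annotation. Log2 signals of the 27307 probe sets at or above the median brightness were tested in limma (3.58.1, under R 4.3.3, by lmFit and eBayes with an intensity trend, two-sided, Benjamini-Hochberg), with 3 MFAP5 and 3 control arrays. The fit was tested on simulated data. The number of arrays limits the precision. MAS5 signals of dim probe sets scatter widely on the log scale.

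The 10 genes and the lists were chosen with earlier results of these data known. The genes named are the 10, and of each list up to 4 called genes with the largest change or else the gene with the smallest p. Promoters are from RefSeq (GRCh38.p14). Alternatives were other scalings and filters, 50 added to each signal, no intensity trend, the replicate number as a block, the mean of a gene's probe sets, and each array left out.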

Additional observations from a re-analysis of the deposited data

How the results depend on the processing

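Among the 12 probe sets of the retinoic acid genes, the 1 called higher and 4 called lower became 0 and 5 with arrays centred on hybridisation controls. Above the 75% quantile of brightness, where 3 of the probe sets remained, they were 0 and 1. Leaving out 1 array at a time gave 0 to 2 higher and 3 to 4 lower. The arrays that changed the count of 1 higher were MFAP5 replicate 1 and control replicate 2 (2 without either) and MFAP5 replicate 3 and control replicate 1 (0 without either). Of the other retinoid genes, 9 higher and 3 lower became 5 and 9 with arrays centred on array medians, and 6 to 8 and 2 to 4 with 1 array left out. Small differences that were not called changed sign: RXRA 202426_s_at (-0.0239 centred on array medians, and -0.0840 to 0.361 with 1 array left out), RARG 204188_s_at (-0.0965 to 0.376), CYP26B1 219825_at (-0.218 to 0.0986) and ALDH1A3 203180_at (-0.219 to 0.00396). The causes were not tested. Over all probe sets, 3679 higher and 3209 lower became 1920 and 2011 with hybridisation controls, 2302 and 5975 with array medians, and 2532 and 2118 without MFAP5 replicate 2. Same-numbered arrays correlated at 0.0887, -0.00715 and 0.166 in their deviations from the group means, and arrays of unlike number at -0.18 to 0.103. The labels state no pairing, so the numbers were not taken to pair the samples. With the replicate number as a block, 1 probe set of the retinoic acid genes was called higher and 4 lower, and 10 of the other retinoid genes were called higher and 4 lower. The block gave 4214 higher and 3774 lower over all probe sets. Signals at or near the Bacillus controls limit what these arrays show of ALDH1A1 and CYP26A1.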
